A study of Mus musculus with 6 samples.

Results

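Replication timing was examined at the genes of the mouse RecQ helicases and of Donson. The members were 6 listed genes, Recql4, Recql, Recql5, Blm, Wrn and Donson, out of 20665 autosomal protein-coding genes in the annotation, of which 19046 had a timing score in at least 1 profile. They were chosen by name, at RefSeq coordinates of build mm10, and not by a cut-off on a measured value. Earlier results of these data were known when the list was made. Each gene took the score of the window nearest its midpoint, and its surroundings were read to 500 kb beyond both gene ends. The data came from whole-genome sequencing of growing mouse myeloid cells immortalised with HoxB8, selected in GM-CSF and kept in IMDM with serum. The wild-type group (WT) had 3 samples, and so did the group with the genotype Recql4 -/- Klhdc3 -/-. All 6 therefore shared the immortalisation, the selection and the culture conditions. The sources used here did not say whether samples of a genotype were separate clones, or how the alleles were made.

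The deposited value columns carried no names, so the 6 profiles are called A to F in column order. No profile could be tied to a genotype, and no difference between genotypes was tested. Values are given per profile, or as a median with the lowest and highest profile. The timing score is the authors' smoothed copy profile, scaled over the autosomes of each profile to a mean of 0 and an SD of 1, and a higher score stands for earlier replication. The raw level is the DNA copy level of a single window of about 10 kb, with autosomal medians from 1.96 to 1.98 and a scatter of 0.120 to 0.126 (SD) around the straight line of raw level on score.

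RecQ helicases unwind DNA in the 3′ to 5′ direction and act in replication and in recombination repair. Loss of BLM, WRN or RECQL4 causes Bloom, Werner or Rothmund-Thomson syndrome in humans, whereas RECQL and RECQL5 are family members with roles at stalled forks and in transcription-coupled genome stability. RECQL4 also has a Sld2-like part that acts when replication starts. DONSON is no helicase. It helps to assemble the CDC45-MCM-GINS helicase at origins and protects forks. Timing was measured at the genes that encode these proteins. DNA copy number says nothing about how much of each protein the cells held.

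The promoters of 4 members were in the RefSeq promoter table of build GRCm38.p6, each 300 bases long and read in the direction of the gene, all on the minus strand. They are shown for a contrast. Blm lay at the top of a timing peak and Donson within 100 kb of one. Recql, with a promoter as rich in CpG, was late among genes (median percentile 12.0) but less so among autosomal windows (35.2). Capitals mark CpG pairs. The intervals are chr16:91688679-91688978 for Donson, chr7:80534949-80535248 for Blm, chr11:115933443-115933742 for Recql5 and chr6:142387038-142387337 for the upstream one of a pair of Recql promoters.
Donson: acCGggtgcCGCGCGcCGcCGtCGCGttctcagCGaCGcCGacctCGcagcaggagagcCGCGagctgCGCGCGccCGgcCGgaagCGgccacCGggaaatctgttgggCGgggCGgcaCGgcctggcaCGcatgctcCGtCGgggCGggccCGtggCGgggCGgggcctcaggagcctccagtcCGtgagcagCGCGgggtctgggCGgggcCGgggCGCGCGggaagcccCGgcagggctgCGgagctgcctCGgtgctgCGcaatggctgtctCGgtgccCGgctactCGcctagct
Blm: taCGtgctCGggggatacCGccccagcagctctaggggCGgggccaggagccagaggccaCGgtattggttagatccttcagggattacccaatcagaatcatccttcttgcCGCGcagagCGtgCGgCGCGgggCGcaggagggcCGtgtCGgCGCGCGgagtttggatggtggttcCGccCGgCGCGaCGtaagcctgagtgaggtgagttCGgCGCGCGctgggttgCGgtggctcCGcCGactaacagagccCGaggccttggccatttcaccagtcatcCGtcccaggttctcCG
Recql5: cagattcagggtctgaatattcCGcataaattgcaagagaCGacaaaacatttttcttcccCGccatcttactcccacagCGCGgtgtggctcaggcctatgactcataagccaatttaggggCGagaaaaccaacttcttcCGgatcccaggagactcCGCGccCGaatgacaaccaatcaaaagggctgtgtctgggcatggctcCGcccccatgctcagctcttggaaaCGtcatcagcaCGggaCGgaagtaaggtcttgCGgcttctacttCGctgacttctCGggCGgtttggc
Recql: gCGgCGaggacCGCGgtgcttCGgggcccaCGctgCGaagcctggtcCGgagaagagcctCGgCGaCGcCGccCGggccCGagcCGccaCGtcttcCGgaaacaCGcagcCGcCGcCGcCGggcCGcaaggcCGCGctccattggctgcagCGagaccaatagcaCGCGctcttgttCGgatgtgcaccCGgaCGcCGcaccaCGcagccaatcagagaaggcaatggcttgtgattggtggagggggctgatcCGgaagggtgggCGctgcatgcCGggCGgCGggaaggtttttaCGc

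The Donson promoter held 46 CpG pairs and the upstream Recql promoter 39, against a median of 14 over 20085 promoters of autosomal protein-coding genes. These counts stood at percentiles 97.8 and 94.0 of those promoters. Blm and the other Recql promoter, which overlaps the upstream one, had 32 CpG pairs each (percentile 86.9), and Recql5 had 18 (percentile 58.5). Both strands were searched for the CCAAT box, which 38.1% of the promoters held at least once. It was found 4 times at the upstream Recql promoter and 3 times at the other. Blm and Recql5 held it 2 times each and Donson 0 times. The GC box GGGCGG was found 5 times at Donson, 3 times at Blm and 2 times each at Recql and Recql5, and 47.0% of the promoters held one. Across genes, those whose richest promoter had 0 to 4 CpG pairs had a median score of 0.272 (3607 genes), and those with at least 30 had 0.962 (2618 genes). Of the latter, 4.01% scored below the Recql median and 3.28% above the Blm median, so these 2 members lay near opposite ends of the CpG-rich genes.

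The members fell into an early set, a middle gene and a late gene. Blm, Donson, Recql5 and Recql4 scored above 1 in every profile, which 28.0% of the 19046 scored genes did. With Wrn, 5 of the 6 members scored above 0 in every profile with a value, against 76.7% of genes. Recql scored below 0 in each of its 5 valued profiles, as did 14.7% of genes. The median over the members was 1.37, and the median of the 18063 genes with 6 scores was 0.816. With 6 members, these shares describe the list and were not tested.

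**Figure D1:**
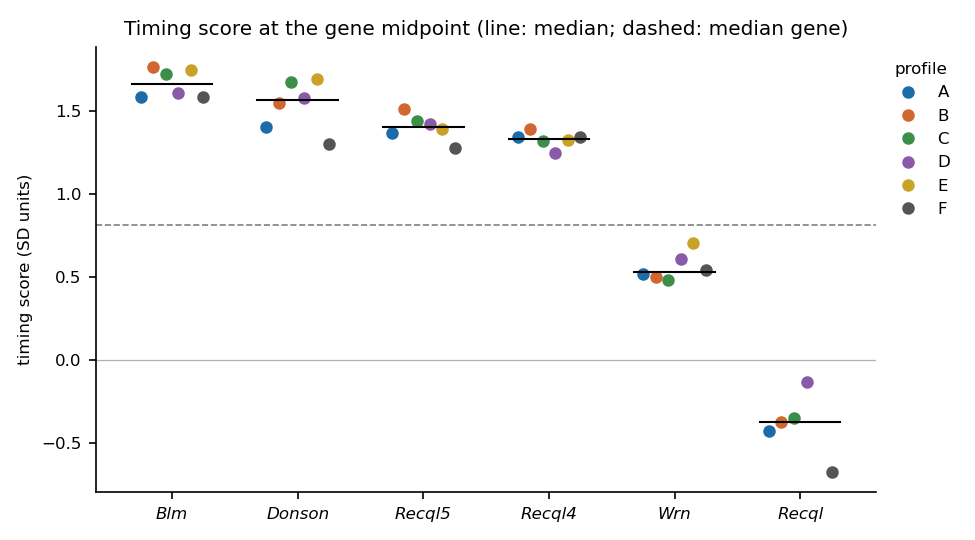
Timing score (SD units) of the window nearest the midpoint of each gene, with 1 dot per profile A to F, a line at the median of a gene, and a dashed line at 0.816, the median of genes with 6 scores. Blm, Donson, Recql5 and Recql4 lie above the dashed line in every profile, Wrn lies between 0.482 and 0.704, and Recql has 5 dots, all below 0.

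Blm, the helicase that dissolves double Holliday junctions with topoisomerase 3 alpha, was the highest member in all 6 profiles. Its scores were 1.58, 1.76, 1.72, 1.61, 1.75 and 1.59 in profiles A to F. Profiles B, C and E were the higher ones, and A and F were nearly equal. Blm spans 80.2 kb of chromosome 7 (80454993 to 80535148) and overlapped 9 windows. Ranked among all scored genes, it stood at a median percentile of 96.2 (94.4 to 99.0).

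The Blm gene carried the top of a timing peak, here a local maximum that rose by 0.25 score units or more above the adjoining valleys. The top lay 1.19 to 31.4 kb from the midpoint and within the gene in 5 profiles, and 49.2 kb from it, just beyond the lower end of the gene, in D. Its height exceeded the score of the gene by at most 0.00902. The score changed by a median of 0.00425 (-0.0668 to 0.0474) from 100 kb below to 100 kb above the midpoint, and the size of this median step stood at percentile 1.42 of all genes. The lowest surrounding window was the outermost one on the lower side in each profile, near Arpin, at a median score of 0.930. The neighbours Furin, which encodes a proprotein convertase, at 1.65 and Crtc3, a CREB coactivator gene, at 1.60 were close to that height.

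Donson had scores of 1.40, 1.55, 1.68, 1.58, 1.69 and 1.30 in profiles A to F. Profiles A and F were low and C and E high, a range of 0.388 that exceeded the range of 82.3% of genes. The gene spans 22.1 kb of chromosome 16 (91666856 to 91688932), and its median percentile was 93.5 (86.0 to 98.0). Donson was below Blm in 6 of 6 profiles, by a median of 0.118, although the ranges of the 2 genes over the profiles overlapped.

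A timing peak lay 27.1 to 67.3 kb below the Donson midpoint, on the side of Son, a nuclear speckle protein gene that overlaps Donson, and of Gart, a purine synthesis gene at the highest window (median 1.58). Donson was therefore within 100 kb of a peak in every profile, as was Blm. These were 2 of 6 members, against 5.92% of scored genes. The score fell towards higher coordinates and reached 0.774 at 507 kb above the midpoint. As Donson is read on the minus strand, the score rose slightly in the direction of its transcription. Up to 2 of the 101 windows around Donson carried no score, which shows as a gap in the curves.

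**Figure D2:**
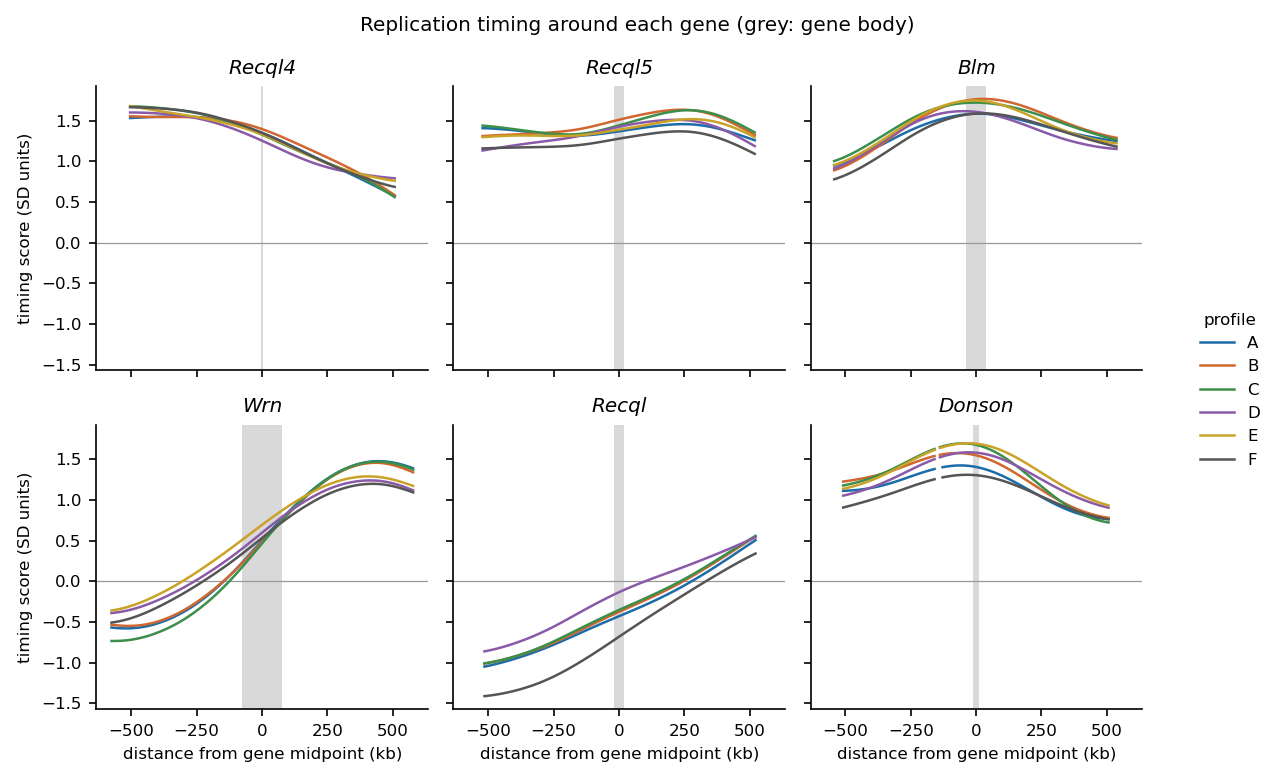
Timing score (SD units) against distance from the gene midpoint (kb) for the windows within 500 kb of each gene, with 1 line per profile A to F and the gene body in grey. Blm lies on a crest, Donson beside one, Recql5 on a plateau, and Recql4, Wrn and Recql on slopes, and the Recql panel holds 5 lines because profile E carried no value there.

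Recql5, which encodes a helicase that binds RNA polymerase II, had scores of 1.37, 1.51, 1.44, 1.42, 1.39 and 1.28 in profiles A to F. Profile B was the highest and F the lowest. The gene covers 40.9 kb of chromosome 11 (115892595 to 115933514) and had a median percentile of 86.7 (83.9 to 90.4). It was below Donson in 6 of 6 profiles, by a median of 0.0957, again with overlapping ranges.

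Within 500 kb Recql5 lay on an early plateau rather than on a crest. Its 103 surrounding windows spanned only 0.287 score units (0.198 to 0.377), the smallest span among the members at this distance. Within 1 Mb the span of Recql5 was 0.963, and that of Blm, 0.855, was then the smallest. The nearest peak lay 223 to 273 kb above the midpoint, near Fbf1, and was 0.0849 to 0.185 units higher than the gene. Chromosome 11 as a whole had a raw median of 1.03 to 1.04 times the autosomal one in the 6 profiles, and the part of this in the Recql5 score was not tested. The region was gene-rich, with 43 protein-coding genes within 500 kb of Recql5, itself included, against a median of 18 for all genes. The shape of this flat plateau correlated less well between profiles than at the other members, with a median Pearson r of 0.884 (0.589 to 0.979) over 15 pairs of profiles and 103 windows, against medians of 0.962 to 0.997 at the others. Adjacent windows of a smoothed profile are not independent, so no test was made of these correlations.

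Recql4, the targeted helicase of the mutant, had the narrowest range of scores among the members. Its values were 1.34, 1.39, 1.32, 1.25, 1.32 and 1.34 in profiles A to F, with B the highest and D the lowest. The range of 0.144 stood at percentile 6.65 among genes with 6 scores, and without D it was 0.0697. On standardised raw levels over 100 kb the range of Recql4 was 0.365, wider than the 0.293 of Recql5 and the 0.334 of Wrn, so the rank held for the smoothed score only. Its median percentile by score was 82.8 (79.3 to 89.1). Recql4 was below Recql5 in 5 of 6 profiles, and in F it was above. For comparison, the other targeted gene, Klhdc3 on chromosome 17, had a median percentile of 73.7 (67.1 to 99.4). D was its highest profile, with a score of 2.14 against 1.05 to 1.30 in the others. Over the windows that overlap Klhdc3, the raw level of D, 2.17, lay inside the 2.11 to 2.20 of the others. Over 100 kb the raw level of D was 2.27, against 2.17 to 2.19 in the others. Whether a change of copy number shifted the Klhdc3 score of D was not tested.

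Recql4 is short, at 7.06 kb of chromosome 15 (76703553 to 76710616), and overlapped 2 windows that extend beyond it. The raw levels of the lower window were 2.09, 2.27, 2.09, 2.20, 2.27 and 2.33 in profiles A to F. Those of the upper window were 2.27, 2.10, 2.14, 1.92, 2.02 and 2.09. Profile D had the lowest single value, in the upper window, and A and C were the lowest in the lower window. Both windows reach beyond the gene, and the labels do not state how the mutant alleles differ from wild type. These levels therefore did not check the genotype of a profile.

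The Recql4 gene sat on a falling slope. The highest window by median, on the lower side at Plec, the gene of the cytoskeletal linker plectin, scored 1.63 (1.53 to 1.68). The score dropped from there to 0.634 (0.560 to 0.791) at 508 kb above the midpoint, in Rbfox2, a splicing regulator gene. From 100 kb below to 100 kb above the midpoint the score fell by 0.247 (0.212 to 0.272), and it fell in all 6 profiles. The nearest peak lay 324 kb below the gene in profile A and 515 to 719 kb below it in the others. With 48 protein-coding genes within 500 kb, itself included, Recql4 had the densest surroundings of the members. Its ends overlapped the neighbouring genes Mfsd3 and Lrrc14.

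Wrn encodes a helicase that also has an exonuclease domain and acts at stalled forks and telomeres. Its scores were 0.518, 0.50, 0.482, 0.609, 0.704 and 0.545 in profiles A to F. Profile E was the highest and C the lowest, and all 6 lay between the scores of Recql4 and Recql without overlap. With 151 kb on chromosome 8 (33234372 to 33385543), Wrn is the longest member and overlapped 16 windows. It stood at a median percentile of 36.3 (32.8 to 43.7) of scored genes, and of 64.8 among all autosomal windows.

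Wrn lay on the steepest slope among the members, so a single score described it poorly. From its first to its last window the score rose from 0.212, 0.206, 0.156, 0.389, 0.496 and 0.326 to 0.777, 0.755, 0.755, 0.795, 0.874 and 0.730 in profiles A to F. The rise was 0.478 (0.378 to 0.599). The profiles were thus further apart at the lower end of the gene than at the upper end. From 100 kb below to 100 kb above the midpoint the score rose by 0.601 (0.477 to 0.752), a step at percentile 98.1 of all genes by size. The surrounding region rose from -0.519 in Nrg1, the gene of the growth factor neuregulin 1, to 1.37 at 428 kb above the midpoint, in Gtf2e2, a TFIIE subunit gene, and Smim18. The span from lowest to highest window was 2.06, 2.00, 2.20, 1.63, 1.65 and 1.70 in profiles A to F, largest in C and smallest in D.

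Recql, which encodes the RECQ1 helicase, was the only member below 0. Its scores were -0.423, -0.370, -0.346 and -0.128 in profiles A to D and -0.673 in F, and E carried no value. D was the highest and F the lowest, and A, B and C lay close together. The gene covers 36.8 kb of chromosome 6 (142350342 to 142387100) and stood at a median percentile of 12.0 (8.34 to 16.3) among genes. Its percentile was 18.4 among genes of chromosome 6 and 35.2 among all autosomal windows. Its range of 0.545 over the 5 profiles exceeded that of 93.6% of genes valued in the same 5, but it rested on D and F and was 0.327 without D and 0.295 without F.

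Recql also lay on a slope, which rose from -1.01 (-1.41 to -0.860) at 515 kb below the midpoint, in the transporter gene Slco1a4, to 0.540 (0.342 to 0.559) at 523 kb above it, in the ganglioside synthase gene St8sia1. The nearest peak lay 746 to 837 kb above the gene. Recql is read on the minus strand, so the score fell along its transcription, and the same held for Recql5. Across the gene the profiles kept the same order, D above C, B, A and F.

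Profile E carried no score in any of the 100 windows around Recql. On chromosome 6 it was the only profile without a score in 1072 windows, and its last valued stretch (138348291 to 139652394, 125 windows) ended 2.70 Mb below the gene. In that stretch E had a mean raw level of 2.42 and the other profiles 1.84 to 1.89, at mean scores of 3.08 and -0.827 to -0.687. No window of E beyond it, up to the end of the chromosome at 149585403, carried a score. How these windows came to lack a score is not stated in the labels, and the copy level of E at Recql is unknown.

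Raw levels also placed Blm, Donson and Recql5 highest and Wrn and Recql lowest. Over the windows that overlap each gene, the raw level was 2.34 (2.31 to 2.38) at Donson, 2.31 (2.24 to 2.34) at Blm, 2.27 (2.22 to 2.31) at Recql5, 2.16 (2.06 to 2.21) at Recql4, 2.06 (2.04 to 2.08) at Wrn and 2.04 (1.97 to 2.10) at Recql. The order of close members depended on the stretch averaged. Over the windows that overlap the genes Donson was above Blm in 5 of 6 profiles, all but F. Over 100 kb, centred on the window nearest each midpoint, Donson was below Blm in 5 of 6, all but C. The medians were 2.26 at Donson and 2.31 at Blm. Over the overlapping windows the ranges of Wrn and Recql met, whereas over 100 kb they were apart, at 2.03 to 2.08 for Wrn and 1.92 to 2.02 for Recql.

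Over its 4 overlapping windows Recql was higher in raw level than its score would place it. Its raw levels there were 2.03, 2.04, 2.07 and 2.10 in A to D and 1.97 in F, against 1.91, 1.93, 1.94, 1.94 and 1.86 on the score line of each profile. The excess of 0.118 (0.105 to 0.156) was positive in all 5 profiles and exceeded that of 89.5% of genes. Donson had an excess of 0.147 (0.115 to 0.171), at percentile 94.5. The distance from the line was smaller over 100 kb, where Recql had a median raw level of 1.98 against 1.93 on the line, and Donson 2.26 against 2.19. By overlapping windows the median gene had an excess of 0.0209, with -0.118 and 0.152 at the 5th and 95th percentiles, so both members lay inside that span. The raw mean over 100 kb around Recql, standardised like the score, was -0.226, -0.0115, 0.276, 0.385 and -0.301 in A, B, C, D and F. By this running mean of raw levels Recql was near the autosomal mean, with 3 profiles below it and 2 above.

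**Figure D3:**
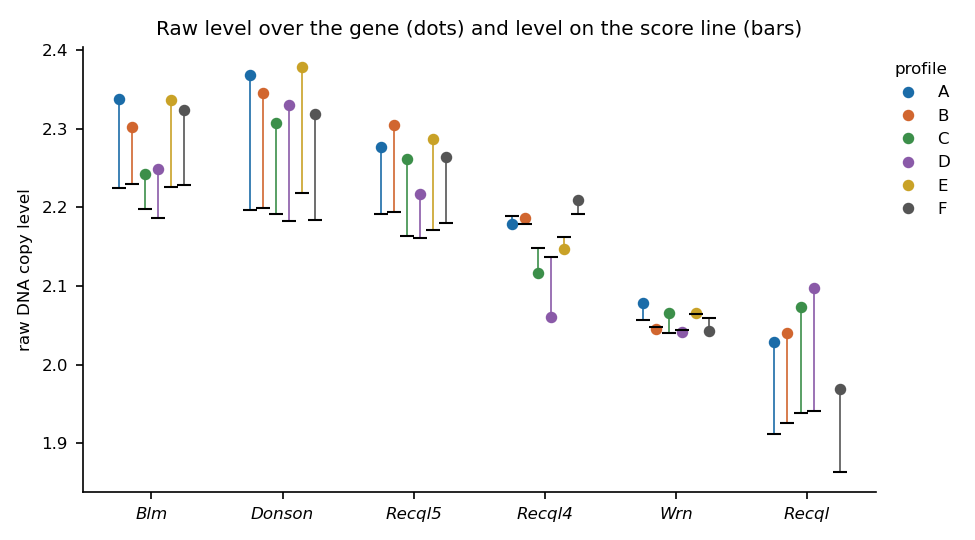
Raw DNA copy level (the axis does not start at 0) over the windows that overlap each gene, with 1 dot per profile A to F joined to a bar at the level given by that profile's straight line of raw level on score. Donson, Blm, Recql5 and Recql lie above their bars in every profile with a value, by medians of 0.147, 0.0838, 0.0921 and 0.118, whereas Wrn lies close to its bars.

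The genes with the most similar scores elsewhere in the genome were found by the root mean square difference over the valued profiles. For Recql5 it was Carm1, the gene of an arginine methyltransferase, on chromosome 9 (difference 0.0140 over 6 profiles), and its neighbour AB124611 (0.0160). Recql4 was nearest to Tprg (0.0349) and Wdr73 (0.0383), Blm to Colq (0.0291) and Stom (0.0477), and Wrn to Pgap1 (0.0222) and Olfr536 (0.0296). Donson was nearest to Ttc16 (0.0668) and the overlapping Tor2a (0.0669), and Recql to Krtap8-1 (0.0490) and Adamts18 (0.0689), both over its 5 profiles.

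Of 3 lists of related genes, only that of Bloom complex partners had a median above the 0.816 of all genes. Within it, Rmi1 at 0.349 and Rpa3 at 0.420 lay below that value. The 7 genes listed as Bloom complex partners had a median score of 1.39. The list was set by name, and membership in the complex was not checked for each gene. It holds Top3a, Top3b (0.961), and the RMI and replication protein A genes. Of these, 7 of 7 scored above 0 in every profile, against 76.7% of all scored genes. Rpa1, the large subunit of replication protein A, was the earliest at 1.54 and Rmi1, a scaffold of the complex, the latest at 0.349. The 21 genes of assembly and activation of the replicative helicase had a lower median of 0.791, and 20 of 21 were above 0 in every profile with a value, against the same 76.7%. Mcm6 was the earliest at 1.50, and Mcm3 was the latest at -0.458, below 0 in each profile as Recql was. Both encode subunits of the MCM helicase.

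The other DNA helicases of repair and replication had a median of 0.747 over 14 scored genes, and 13 of 14 were above 0 in every profile with a value, again beside 76.7% of all genes. Zranb3, an annealing helicase of stalled forks, was the earliest at 1.50 and Helb, a helicase that limits end resection, the latest at 0.406. Hltf, another fork remodeller, was at 0.561 to 0.769 in A, B, C and F and at -0.708 and -1.25 in D and E. Fancm was at 0.365 to 0.635 in A, B and C and at 1.93 in F, with no value in D and E. Ddx11, a cohesion helicase gene on chromosome 17, was at 2.22 in D and 1.06 to 1.24 in the others. The score is a smoothed copy profile. Whether a change of copy number shifted the scores of Hltf, Fancm or Ddx11 was not tested. Hells carried no score. The medians of the latter 2 lists were close to the 0.816 of all genes, and that of the Bloom complex partners was close to the 1.37 of the members.

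**Figure D4:**
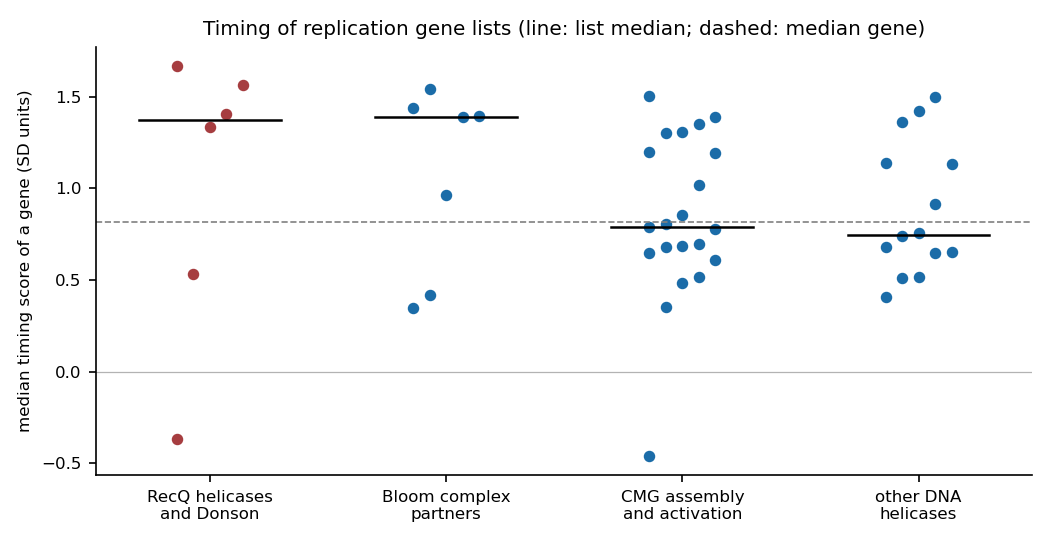
Median timing score over the valued profiles (SD units), with 1 dot per gene, for the 6 members and 3 lists of related genes, a line at each list median and a dashed line at 0.816, the median of genes with 6 scores. The members have a median of 1.37 and the lists medians of 1.39, 0.791 and 0.747, and Recql and Mcm3 are the dots below 0.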

How the data were processed

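Whole-genome sequencing of growing mouse myeloid cells gave 2 deposited tables over 237602 windows (median 10041 bp), with mm10 and Picard 2.23.9 named per the submitters' processing notes. The title names TIGER. For aligner, GC correction and smoothing the sources used here give nothing. The deposited score is a smoothed profile scaled per column, and the authors' raw levels are normalised copy levels. The depth reached is unknown, so no counting interval was computed. No column name or label tied a column to a sample, so the planned genotype tests were not run and all values are descriptions.

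Genes came from RefSeq (GRCm38.p6) and took the nearest window within 50 kb. Percentiles rank a gene among scored autosomal protein-coding genes. A peak needed a prominence of 0.25 score units. The raw-on-score line was fitted per profile to windows with scores within 3 units of 0. Named genes were the members, Klhdc3, the nearest neighbours, the genes at the highest and lowest surrounding window, the 2 most similar genes on other chromosomes, and the earliest and latest gene of each of 3 lists. Hltf, Fancm, Ddx11 and Hells were named after their values were seen. The members and lists were chosen with earlier results of these data known. Python 3.11.15, numpy 2.4.6, pandas 2.3.3 and scipy 1.17.1 were used, and peak finding was tested on simulated data. The promoter, motif, steepness, raw-excess and neighbour measures were added after the data were seen.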

Additional observations from a re-analysis of the deposited data

How the results depend on the processing

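No paired analysis was possible because the value columns carry no replicate number or sample name. The limits are the unknown genotype and depth of each profile and the smoothing, which spreads a score over neighbouring windows. Further limits are profile E, which has no value at Recql, and any change of copy number, which was not separated from timing. The median score of the 6 members, 1.37, was 1.54 on standardised raw levels over 100 kb and 1.10 with median and MAD scaling. Their median percentile, 84.7, was 81.0 among genes of the same chromosome and 94.2 among autosomal windows. The score drop across the surroundings, 0.865 in the median, was 0.495 within 250 kb and 1.05 within 1 Mb, and the range over profiles, 0.228, was 0.385 on raw levels. Of 84 values of single members under the alternatives, 43 moved by less than the SD over profiles, 41 moved by more and 0 changed sign. Wrn scored 0.269 at its lower and 0.766 at its upper coordinate. With a profile left out, each median over the members stayed within the SD over profiles, but ranges of single members narrowed, at Recql4 from 0.144 to 0.0697 without D, at Recql from 0.545 to 0.327 without D and 0.295 without F, at Recql5 from 0.233 to 0.143 without F and at Wrn from 0.222 to 0.127 without E. Percentiles of the later members moved most among autosomal windows, from 12.0 to 35.2 at Recql and from 36.3 to 64.8 at Wrn. The mean raw level within 50 kb of the gene midpoint itself was 1.96 at Recql, against 2.04 over the gene, and 2.25 at Donson, against 2.34. Centred on the nearest window instead, as in the Results, the means over 100 kb were 1.98 at Recql and 2.26 at Donson. Peak distances moved by less than the SD over profiles at prominences of 0.1 and 0.5.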

Other observations

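Most members touch or nearly touch another gene. Recql4, Recql, Recql5, Wrn and Donson, 5 of the 6, overlap a protein-coding neighbour or lie within 400 bp of one, as do 27.5% of the 20665 autosomal protein-coding genes. At the upper coordinate end the gap is 110 bp from Recql to Golt1b, 63 bp from Recql5 to Sap30bp, 75 bp from Wrn to Purg and 367 bp from Donson to Cryzl1. The limit of 400 bp was not planned and lies just above the widest of these gaps, so the share of members depends on it. For 2 of the 4 members in the promoter table, Recql and Recql5, the start of that neighbour faces their own on the other strand within 1000 bp, against 9.36% of 16457 genes.

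The windows that hold the promoters of Recql and Donson had lower raw levels than their surroundings in each profile with a value. The difference from the mean of the 3 windows on each side was -0.179 (-0.225 to -0.0670) at Recql and -0.154 (-0.224 to -0.0755) at Donson. It was -0.0479 (-0.0930 to -0.0134) at Blm and -0.0678 (-0.126 to 0.0241) at Recql5. This was noticed after the values were seen. No such difference appeared over all promoters rich in CpG: the 2426 windows whose promoter had at least 30 CpG pairs had a median difference of -0.00105, with quartiles of -0.0875 and 0.0743, and 50.4% of them were below 0.

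Among 12 sets of values, the scores and raw levels of the 6 members, 0 had a profile past Dixon's limit for a value apart from the rest. These sets mix both genotypes.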
